A study of Mus musculus with 13 samples.

Results

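A set of 6 genes, taken as single genes and not as a pathway, was examined in mouse lung after 5 days at 80% oxygen. They were Ifrd1, Rras2 and Esd, which were higher in hyperoxia, and Itih4, Tril and Gpt, which were lower. They were taken by symbol from a table of 32544 gene symbols because their counts changed among the most, or the most consistently, between hyperoxia and normoxia, and because none of them belongs to a stress response or a cell type list. Their fold changes and the distance between the groups are therefore what chose them, and those values are given below as a description without a test. All 6 were among the 12496 genes with enough counts to be tested.

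The libraries came from lungs of wild-type C57BL/6J male mice, bought at 7 weeks of age, which had been perfused with cold DPBS and flash frozen. Mice breathed 21% oxygen (normoxia, 7 libraries) or 80% oxygen (hyperoxia, 6 libraries) for 5 days, and no other treatment or allele separated or joined the groups. RNA was read with Quant-seq, which sequences the 3′ end of polyadenylated transcripts, and levels are given as CPM, the usual scale of counts relative to library total, after TMM scaling. Whether each library is 1 mouse is not spelled out in the labels, so the spread between libraries may hold technical error as well as differences between mice.

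Oxygen above the atmospheric level injures the alveolar epithelium and the capillary endothelium of the lung, and surviving cells respond through the transcription of early response genes, through changes in metabolism and through remodelling of the matrix. The 6 genes sit at different places in this biology. Ifrd1 encodes a transcriptional coregulator that works with histone deacetylase complexes, and it was first described as a gene induced by phorbol ester (TPA). Rras2 encodes TC21, a membrane-bound GTPase close to the classical Ras proteins. Esd encodes esterase D, also called S-formylglutathione hydrolase, which completes the glutathione-dependent removal of formaldehyde. Itih4 encodes a secreted protein of the inter-alpha-trypsin inhibitor heavy chain family, known mostly as a plasma protein made by the liver. Tril encodes a membrane protein with leucine-rich repeats that assists Toll-like receptor signalling. Gpt encodes the cytosolic alanine aminotransferase, which converts alanine and alpha-ketoglutarate to pyruvate and glutamate.

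The genes lie on 5 chromosomes and all are annotated as protein coding in GENCODE M21 on GRCm38. Ifrd1 spans chr12:40201567-40248504 on the minus strand, Rras2 chr7:114046782-114117781 on the minus strand, and Esd chr14:74732297-74750765 on the plus strand. Itih4 spans chr14:30886476-30902353 on the plus strand, Tril chr6:53815468-53820830 on the minus strand, and Gpt chr15:76695716-76699686 on the plus strand. Antisense transcripts are annotated over Ifrd1 (Gm7008), Rras2 (Gm45615) and Tril (Gm16499), and an intronic transcript, a miRNA gene and a processed pseudogene lie inside Ifrd1 on its own strand. The sources do not say that counting used strand, so reads of these partners could not be told apart, although Gm7008, the only one of them with a row in the count table, had at most 3 counts in any library.

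Promoter sequences from 250 bases before to 50 bases after the annotated start were available for 5 of the 6 genes from RefSeq (GRCm38.p6). The windows of Ifrd1 and Esd are printed because both genes were higher by a similar factor, and that of Itih4 because it is the window of a lower gene that differs most from them in composition. They are read 5′ to 3′ on the strand of the gene. The Ifrd1 window lies inside the GENCODE span of the gene, at the start that RefSeq gives. Capitals mark matches on either strand to the GC box (GGGCGG), the CCAAT box (CCAAT) and the TATA box (TATAAA), which do not overlap here.
Ifrd1, chr12:40223140-40223439, minus strand: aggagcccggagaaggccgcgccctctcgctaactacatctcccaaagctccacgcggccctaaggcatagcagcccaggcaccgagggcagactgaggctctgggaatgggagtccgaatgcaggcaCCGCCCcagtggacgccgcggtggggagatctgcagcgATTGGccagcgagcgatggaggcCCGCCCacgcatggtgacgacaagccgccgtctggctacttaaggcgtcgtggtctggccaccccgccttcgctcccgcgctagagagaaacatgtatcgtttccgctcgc
Esd, chr14:74732047-74732346, plus strand: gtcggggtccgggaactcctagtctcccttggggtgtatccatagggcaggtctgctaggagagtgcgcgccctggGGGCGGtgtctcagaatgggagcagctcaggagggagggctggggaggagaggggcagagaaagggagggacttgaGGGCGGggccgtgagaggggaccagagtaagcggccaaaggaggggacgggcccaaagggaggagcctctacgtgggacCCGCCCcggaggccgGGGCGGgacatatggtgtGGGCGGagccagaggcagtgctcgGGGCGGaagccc
Itih4, chr14:30886226-30886525, plus strand: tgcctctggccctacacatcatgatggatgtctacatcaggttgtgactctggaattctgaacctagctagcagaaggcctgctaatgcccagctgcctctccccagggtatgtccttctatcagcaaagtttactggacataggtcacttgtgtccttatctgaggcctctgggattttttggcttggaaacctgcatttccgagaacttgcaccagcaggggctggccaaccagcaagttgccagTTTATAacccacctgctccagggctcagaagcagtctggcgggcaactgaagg

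The Esd window held 6 GC boxes and the Ifrd1 window 2, beside 1 CCAAT box. The Rras2 window, which is not printed, held 2 GC boxes and that of Tril 1, while Itih4 had no GC box and 1 match to the TATA box. That match begins at -3, runs across the annotated start and is on the strand opposite to the gene, so it is a match of letters only. Among all 32851 promoter windows of this length, 35.7% held the GC box, 37.4% the CCAAT box and 13.6% the TATA box. GC content was 65.7% for Ifrd1, 60.3% for Rras2, 68.7% for Esd and 62.7% for Tril, against 52.3% for Itih4 and a median of 52.7% over all windows. CpG dinucleotides numbered 29 for Ifrd1, 20 for Rras2, 17 for Esd and 26 for Tril, but 2 for Itih4, with a median of 7 over all windows. Both strands were also searched for the ATF4 and CEBP composite core (TGATGNAA, in 3.97% of all windows), the cyclic AMP response element (TGACGTCA, 1.79%), the AP-1 site (TGANTCA, 7.81%), the antioxidant response element core (TGACNNNGC, 12.4%) and the E-box (CACGTG, 7.15%). None of these 5 letter patterns occurred in the 5 windows, which says only that the letters are not there.

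Ifrd1 was at 108 CPM in the lowest normoxic library, with a median of 123 and a highest value of 167. In hyperoxia it ran from 495 to 697 CPM with a median of 567. The 2 groups were far apart, as the lowest hyperoxic library was 2.97-fold above the highest normoxic one. The normoxic mean was 132 ± 23.7 CPM (SD, n = 7) and the hyperoxic mean 580 ± 66.9 CPM (SD, n = 6), with a log2 fold change of 2.13 (SE 0.14), or 4.39-fold. Between 193 and 499 counts stood behind each normoxic value and between 1301 and 2728 behind each hyperoxic one, so that counting error was small beside the spread of the libraries. The highest value was in hyperoxia replicate 1, the library that correlated least with the others, and without it the log2 fold change was 2.09.

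Rras2 differed little among normoxic libraries, from 28.7 to 33.5 CPM with a median of 29.9. The hyperoxic libraries lay between 81.5 and 105 CPM with a median of 99.7. No library of one condition came near the other, with a distance of 2.43-fold between the nearest 2. Group means were 30.2 ± 1.56 CPM (SD, n = 7) and 97.4 ± 9.24 CPM (SD, n = 6), and the log2 fold change was 1.69 (SE 0.11), the smallest of the 6 in size. The coefficient of variation in normoxia was 5.18%, below the 11.04% that counting error alone gives for the counts of these libraries, which averaged 86.7. This tightness was therefore narrower than the depth can resolve and is a property of these 7 values, not a measure of how steady the gene is between mice. The lowest hyperoxic value was again from replicate 1, and the log2 fold change without it was 1.75.

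Esd, the hydrolase of formaldehyde detoxification, ranged from 124 to 161 CPM in normoxia around a median of 134. Its hyperoxic values reached from 424 to 840 CPM with a median of 648. Hyperoxia replicate 1 was the lowest and replicate 3 the highest, and even the lowest was 2.63-fold above every normoxic library. The mean of 139 ± 14.8 CPM (SD, n = 7) in normoxia compared with 644 ± 138 CPM (SD, n = 6) in hyperoxia, with a log2 fold change of 2.21 (SE 0.15), or 4.63-fold. Leaving out hyperoxia replicate 1 gave 2.32 and leaving out replicate 3 gave 2.14.

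Itih4, the inter-alpha-trypsin inhibitor family member, was at 36.0 to 50.7 CPM in normoxia with a median of 43.7. In hyperoxia it was at 6.42 to 10.7 CPM with a median of 7.24. Every hyperoxic library was below every normoxic one, the nearest 2 by a factor of 3.36. Means were 42.3 ± 5.44 CPM (SD, n = 7) and 7.82 ± 1.65 CPM (SD, n = 6), and the log2 fold change was -2.44 (SE 0.18), a 5.44-fold lower level. The hyperoxic values rest on 17 to 30 counts, and their coefficient of variation of 21.1% was close to the 21.0% of counting error. Hyperoxia replicate 1 was the highest of its group, and without it the log2 fold change was -2.52.

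Tril, the accessory protein of Toll-like receptors, was at 24.2 to 36.8 CPM in normoxia with a median of 29.3. The hyperoxic libraries were at 1.04 to 4.31 CPM with a median of 3.62. Replicate 3 was well under the other hyperoxic libraries, which lay between 3.40 and 4.31 CPM, and all were at least 5.62-fold below the lowest normoxic value. Means were 29.1 ± 4.30 CPM (SD, n = 7) and 3.29 ± 1.15 CPM (SD, n = 6), with a log2 fold change of -3.12 (SE 0.25), the largest of the 6 in size. Only 3 to 16 counts per library stood behind the hyperoxic values, and the 3 counts of replicate 3 are at the floor of 3 counts taken here as the limit of detection. Without that library the log2 fold change was -2.92.

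Gpt, the cytosolic alanine aminotransferase, varied most. Normoxic libraries ran from 11.1 to 26.5 CPM with a median of 17.8, and hyperoxic ones from 0.695 to 4.85 CPM with a median of 1.94. The groups stayed apart by a factor of 2.30. Group means of 18.4 ± 5.64 CPM (SD, n = 7) and 2.22 ± 1.46 CPM (SD, n = 6) gave a log2 fold change of -2.97 (SE 0.37), the widest standard error of the 6. Counts in hyperoxia were 2 to 18 per library, with replicates 1 and 3 at or under the floor, and the coefficient of variation of 66.1% stood beside 48.1% from counting error. Leaving out hyperoxia replicate 4, the highest of its group, moved the log2 fold change to -3.35, and leaving out replicate 3 to -2.77.

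**Figure D1:**
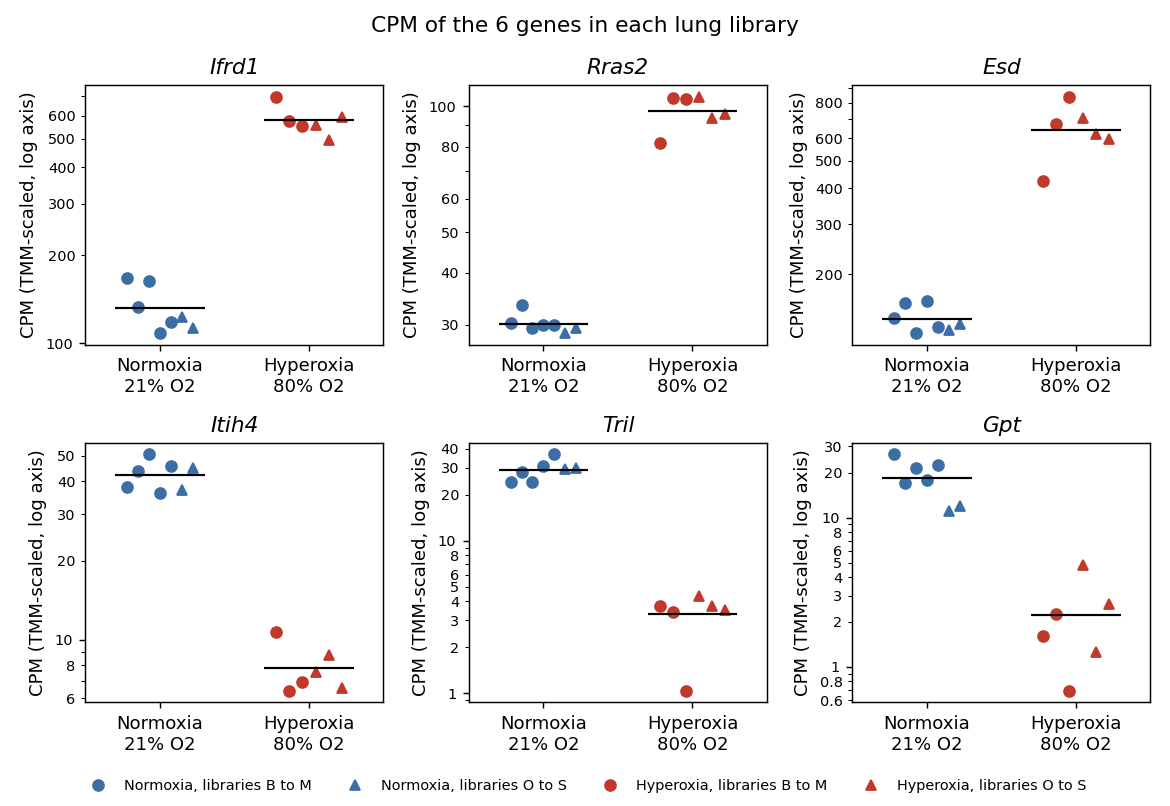
CPM on a log axis for Ifrd1, Rras2, Esd, Itih4, Tril and Gpt in each of 7 normoxic and 6 hyperoxic lung libraries. Each point is 1 library, circles and triangles are the 2 sets of library letters and the line is the group mean. In every panel the groups are apart, by 2.30-fold for Gpt and 5.62-fold for Tril between the nearest libraries.

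Library names carry letters from B to M (5 normoxic and 3 hyperoxic libraries) or from O to S (2 normoxic and 3 hyperoxic), and what the letters stand for is not stated. For 4 of the genes the sets gave nearly the same log2 fold change, at 2.20 and 2.21 for Ifrd1, 1.70 and 1.74 for Rras2, 2.22 and 2.29 for Esd, and -2.37 and -2.44 for Itih4. Tril gave -3.37 in B to M and -2.95 in O to S. Gpt differed most, at -3.73 in B to M and -1.97 in O to S. Both of its groups moved between the sets, since the normoxic mean was 21.1 CPM in B to M and 11.5 CPM in O to S and the hyperoxic mean was 1.52 and 2.91 CPM. The difference between the sets was not tested.

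**Figure D2:**
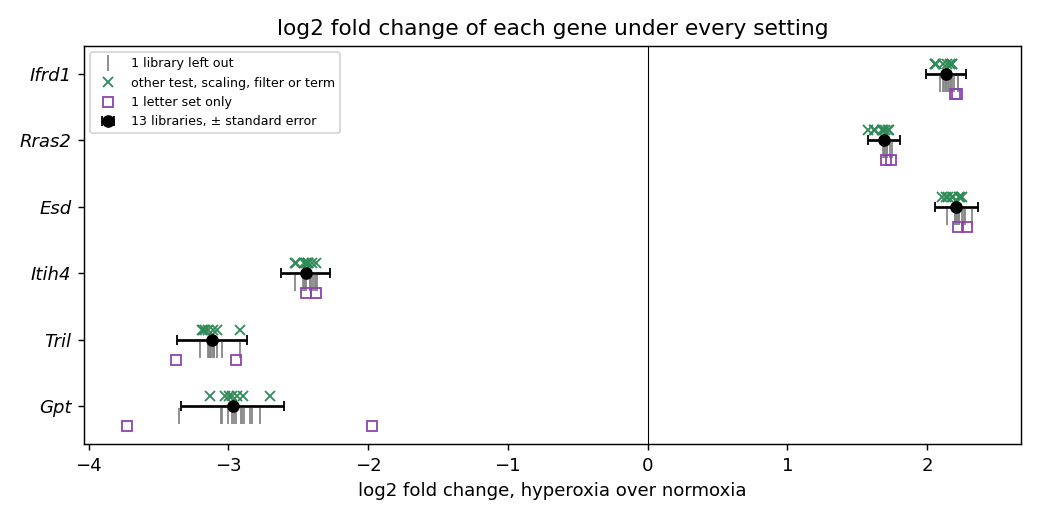
The log2 fold change of hyperoxia over normoxia for each gene, with black points and bars for all 13 libraries ± standard error, grey ticks for fits without 1 library, crosses for other tests, scalings, filters or terms, and squares for 1 letter set alone. The values of Ifrd1, Rras2, Esd and Itih4 stay close together under every setting, while Gpt spans -3.73 to -1.97.

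By edgeR's quasi-likelihood test, 11.8% of the 12496 genes were called higher in hyperoxia and 10.8% lower at an adjusted p under 0.05. In 5.6% of them every hyperoxic library was above every normoxic one, and in 5.23% every one was below. All 6 genes were called and none overlapped, which is what they were chosen by, so nothing is read from these counts. Ranked by size among the 5970 genes with a positive log2 fold change, Esd was at 70, Ifrd1 at 77 and Rras2 at 145. Among the 6526 genes with a negative one, Tril was at 14, Gpt at 17 and Itih4 at 47. The order was different for the log2 fold change divided by its standard error, where Ifrd1 was at 4, Rras2 at 5 and Esd at 7 of the positive genes, and Itih4 at 3, Tril at 6 and Gpt at 57 of the negative ones. The choice had no fixed limit, and 45 genes that are not among the 6 had a positive log2 fold change above that of Esd without overlap of the groups.

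**Figure D3:**
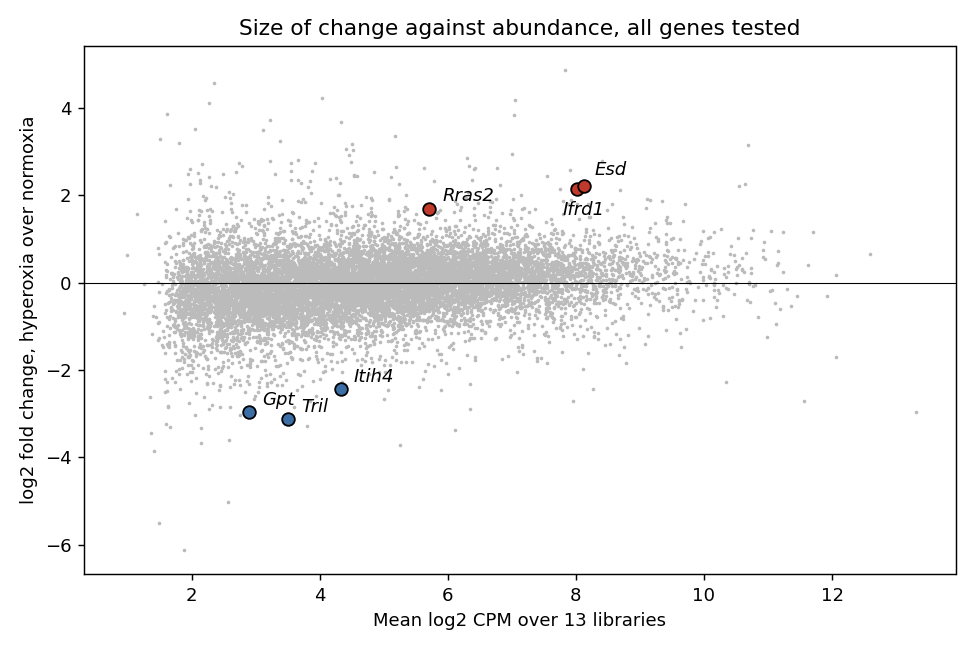
The log2 fold change of hyperoxia over normoxia against the mean log2 CPM over 13 libraries for 12496 genes in grey, with Ifrd1, Rras2, Esd, Itih4, Tril and Gpt as large points. Ifrd1 and Esd lie among abundant transcripts, where few genes changed as much, and Tril and Gpt lie at low abundance, where large values of either sign are more frequent.

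The choice could weigh the spread of each gene within a condition, so how the genes varied together within the groups is given as a description without a test. For each of the 15 pairs of the 6 genes, log2 CPM after subtraction of the group mean was correlated over the 13 libraries, with both values of a point from the same library. Rras2 and Esd varied most alike, with Pearson's r of 0.872 and Spearman's rho of 0.764. Without the 2 libraries farthest from the median of Rras2, normoxia replicate 2 and hyperoxia replicate 1, r was 0.727. It was 0.927 within the 6 hyperoxic libraries, 0.67 within the 7 normoxic ones and 0.871 within the 8 lettered B to M. No value was computed for the 5 lettered O to S. The next pair was Esd and Itih4 with r of -0.662, which was -0.835 within B to M and -0.365 without hyperoxia replicates 1 and 3.

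**Figure D4:**
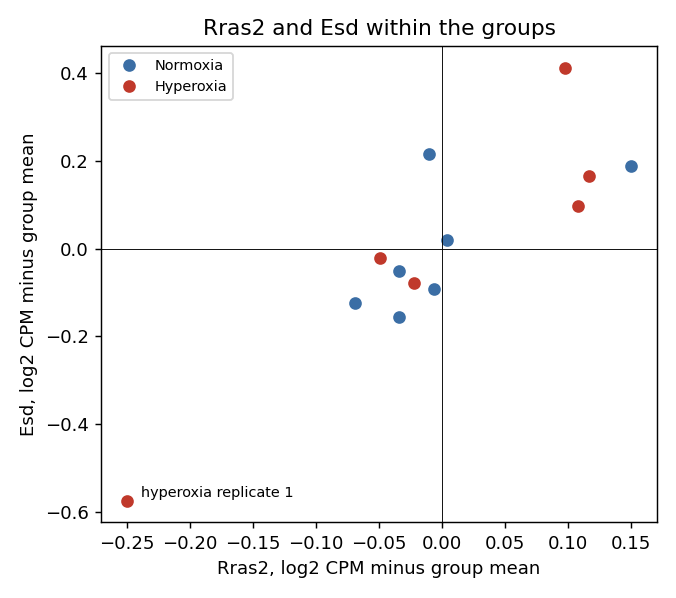
Log2 CPM of Esd against that of Rras2 after subtraction of each gene's group mean, with 1 point for each of 7 normoxic and 6 hyperoxic libraries. Hyperoxia replicate 1 lies far below the mean for both genes, and r is 0.872 over all 13 libraries and 0.73 without it.

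Genes with the most similar pattern within the groups were taken over the same 13 libraries from genes whose log2 CPM averaged 3 or more, and their r is a description, since each is the top of all those genes. For Ifrd1 these were Fzd7 (r = 0.90), Max (0.873) and Lins1 (0.852). Rras2 was followed by Pde9a (0.899), Rnf7 (0.898) and Cipc (0.898), but r with Pde9a was 0.776 without hyperoxia replicate 1. The closest to Esd were Tmem70 (0.958, and 0.902 without that library), Fbxo33 (0.943) and Mocs2 (0.937). Itih4 was followed by Sept3 (0.905), Grb2 (0.89) and Vwa1 (0.871), Tril by Taz (0.885), Gm10163 (0.871) and Cep57l1 (0.869), and Gpt by Timm50 (0.901), Tubb4b (0.887) and Ndufv1 (0.881). Without hyperoxia replicate 1, r of these 18 genes with their member ran from 0.744 for Rnf7 to 0.941 for Timm50, and Spearman's rho over all libraries from 0.588 for Gm10163 to 0.923 for Mocs2. Gpt averaged below 3 and could not be a candidate for the others. None of the remaining members was among the 3 most similar genes of any of the 6.

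Around each gene, genes of its family or pathway were counted against the same background of 11.8% higher and 10.8% lower, with a median log2 fold change of -0.03 over all genes tested. Of the 7 genes induced with Ifrd1 by phorbol ester or related to it, 4 rose and 0 fell, with a median of 0.71. Ptgs2, the inducible cyclooxygenase, rose from 11.4 ± 6.43 to 45.0 ± 24.4 CPM (2.01, edgeR adjusted p = 0.00205). The early response transcription factors Fos (1.93, adjusted p = 0.00208) and Egr1 (1.80, adjusted p = 0.00806) rose too, and Btg2 was the remaining call. Nr4a1, another such factor, did not pass (-0.49, edgeR adjusted p = 0.565), nor did Zfp36 (0.03, edgeR adjusted p = 0.962). In the libraries lettered B to M alone, Ptgs2 (1.77, edgeR adjusted p = 0.0711), Fos (1.33, adjusted p = 0.131) and Egr1 (0.92, adjusted p = 0.288) did not pass. Ifrd2, the paralog of Ifrd1, did not pass, with 7.33 ± 5.28 CPM in normoxia against 4.84 ± 1.98 CPM in hyperoxia (-0.51, edgeR adjusted p = 0.421). Of 17 genes of the SIN3, NCOR and histone deacetylase complexes with which IFRD1 works, 1 rose and 0 fell, with a median of -0.0001, and without hyperoxia replicate 1 these counts were 2 and 2. That gene, the corepressor subunit Tbl1x (0.50, edgeR adjusted p = 0.0306), no longer passed without any one of normoxia replicates 1, 3 or 5 or hyperoxia replicates 4, 5 or 6 (adjusted p 0.0503 to 0.0707).

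Among 22 tested GTPases of the Ras family, 2 rose and 0 fell, with a median of 0.18, and without hyperoxia replicate 1 these were 5 and 0 of 23. Rap2b, a Rap GTPase, rose from 35.2 ± 8.16 to 64.4 ± 12.3 CPM (0.86, edgeR adjusted p = 0.00234). Rala, which acts on exocytosis, rose from 212 to 418 CPM (0.98, edgeR adjusted p = 0.00362). The close relatives of Rras2 did not pass, with Rras at 43.1 ± 16.2 and 48.9 ± 31.3 CPM (0.20, edgeR adjusted p = 0.80) and Mras at 20.9 ± 4.67 and 20.1 ± 6.00 CPM (-0.07, edgeR adjusted p = 0.844). Of 22 exchange factors and GTPase activating proteins, 2 rose and 6 fell, with a median of 0.06, or 4 and 5 without hyperoxia replicate 1. Rapgef1, an exchange factor for Rap, rose from 148 to 327 CPM (1.14, edgeR adjusted p = 4.11e-04), while Rasgrp1 (-1.35, adjusted p = 0.00388) and Rasgrp3 (-0.89, adjusted p = 0.00691), exchange factors known from lymphocytes, fell. In the same libraries all 4 B cell markers and both tested T cell markers fell, and the part of those cells in the Rasgrp values was not tested. Of 25 Ras effectors 3 rose and 5 fell, with a median of -0.31, or 2 and 5 without that replicate. Those with the smallest adjusted p were Rin1 (1.94, edgeR adjusted p = 0.00166), Pik3cd (-1.68, adjusted p = 0.0024) and Map2k2 (0.58, adjusted p = 0.0192).

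Esd follows the formaldehyde dehydrogenase Adh5 in its pathway. Adh5 averaged 80.8 ± 12.97 CPM in normoxia, against 116 ± 43.1 CPM in hyperoxia, and did not pass (0.53, edgeR adjusted p = 0.0809), but it did without hyperoxia replicate 1 (0.68, adjusted p = 0.00723). Of 18 tested genes for formaldehyde and aldehyde removal 0 rose and 2 fell, with a median of -0.41, and without that replicate 1 rose and 2 fell, with a median of -0.25. With at least 10 counts in each library the median was -0.12. By DESeq2 on all libraries, Adh5 passed as well (0.55, adjusted p = 0.0475). Aldh6a1, a mitochondrial dehydrogenase of valine breakdown, fell from 29.3 to 12.5 CPM (-1.22, edgeR adjusted p = 5.66e-04). Aldh1a7 fell by 0.88 (edgeR adjusted p = 0.0364), a value to be read with care because Aldh1a1 is a close paralog and sharing of reads was not tested, and it no longer passed without any one of normoxia replicates 1 to 5 or hyperoxia replicates 3 or 5 (adjusted p 0.051 to 0.0724).

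Of 9 tested genes of the inter-alpha-trypsin inhibitor family and the hyaluronan matrix that some of its heavy chains bind, 1 rose and 1 fell, with a median of -0.37. Without hyperoxia replicate 1 these were 1 and 2 of 10. Itih5, a tissue-expressed family member, fell from 17.8 ± 3.67 to 7.98 ± 2.47 CPM (-1.17, edgeR adjusted p = 0.00203). Vcan, the hyaluronan-binding proteoglycan versican, rose from 12.2 ± 1.25 to 126 ± 39.5 CPM (3.35, edgeR adjusted p = 8.55e-08). Itih1 and Itih3, which lie beside Itih4 on chromosome 14, and Itih2 had too few counts to be tested, with at most 7, 3 and 18 counts in any library. Of 10 tested acute-phase proteins, the class in which Itih4 is usually counted, 3 rose and 3 fell, with a median of 0.04. That median was 0.16 without hyperoxia replicate 1 but -0.11 without replicate 2, and -0.30 with limma on the deposited values and -0.32 in B to M alone. Haptoglobin (Hp) fell from 141 to 63.1 CPM (-1.16, edgeR adjusted p = 7.2e-04), whereas the protease inhibitor Serpina3n (3.04, adjusted p = 0.0012) and the serum amyloid Saa3 (1.95, adjusted p = 0.0018) rose.

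Tlr4, the receptor for lipopolysaccharide with which TRIL acts, rose from 6.94 ± 0.958 to 15.7 ± 3.44 CPM (1.17, edgeR adjusted p = 7.15e-04) while Tril was lower, but did not pass in the libraries lettered O to S alone (0.92, adjusted p = 0.08). Of 19 tested Toll-like receptors and their signalling partners 1 rose and 2 fell, with a median of 0.18, or 2 and 2 of 20 without hyperoxia replicate 1. The falling genes were Lbp, the lipopolysaccharide-binding protein, from 67.9 to 39.5 CPM (-0.79, edgeR adjusted p = 0.00373), and the Toll-like receptor homologue Cd180, known from B cells, from 9.34 to 3.83 CPM (-1.31, edgeR adjusted p = 0.00929). All 4 B cell markers fell in the same libraries, and their part in the Cd180 value was not tested. Tlr3, the receptor for double-stranded RNA, did not pass (-0.45, edgeR adjusted p = 0.129), nor did the coreceptor Cd14 (0.25, edgeR adjusted p = 0.762), and the coreceptor Ly96 had too few counts to be tested, with at most 13 in any library.

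Gpt2, the mitochondrial alanine aminotransferase, averaged 8.66 ± 2.69 CPM in normoxia, against 12.3 ± 3.81 CPM in hyperoxia, and did not pass (0.51, edgeR adjusted p = 0.185). Of 9 tested aminotransferases 3 rose and 0 fell, with a median of 0.51, or 4 and 0 without hyperoxia replicate 1, where the median was 0.56. It was 0.36 without hyperoxia replicate 4. Psat1, the aminotransferase of serine synthesis, rose from 9.16 ± 2.11 to 62.0 ± 19.2 CPM (2.76, edgeR adjusted p = 6.85e-07), and Gfpt2, which makes glucosamine phosphate, rose from 5.76 to 13.1 CPM (adjusted p = 0.0119) but did not pass by limma on the deposited values (0.88, adjusted p = 0.058). Got1, the cytosolic aspartate aminotransferase, passed (1.31, edgeR adjusted p = 0.0269), but not without hyperoxia replicate 4 (1.19, adjusted p = 0.0562) or replicate 6 (1.24, adjusted p = 0.0505). It also did not pass by limma-voom (1.05, adjusted p = 0.195), by limma on the deposited values (0.78, adjusted p = 0.314), once the letter set was a covariate (1.23, edgeR adjusted p = 0.062) or in B to M alone (0.75, edgeR adjusted p = 0.451). Of 16 genes that move or convert alanine, glutamate and pyruvate, 1 rose and 1 fell, with a median of 0.05, or 3 and 1 of 17 without hyperoxia replicate 1, where the median was 0.16. It was 0.0003 without hyperoxia replicate 2, -0.11 with limma-voom and -0.19 with limma on the deposited values. The neutral amino acid transporter Slc38a2 rose from 95.7 ± 21.1 to 198 ± 10.97 CPM (1.05, edgeR adjusted p = 1.06e-04), and the pyruvate dehydrogenase kinase Pdk1 fell from 41.1 to 25.5 CPM (-0.68, edgeR adjusted p = 0.0186).

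**Figure D5:**
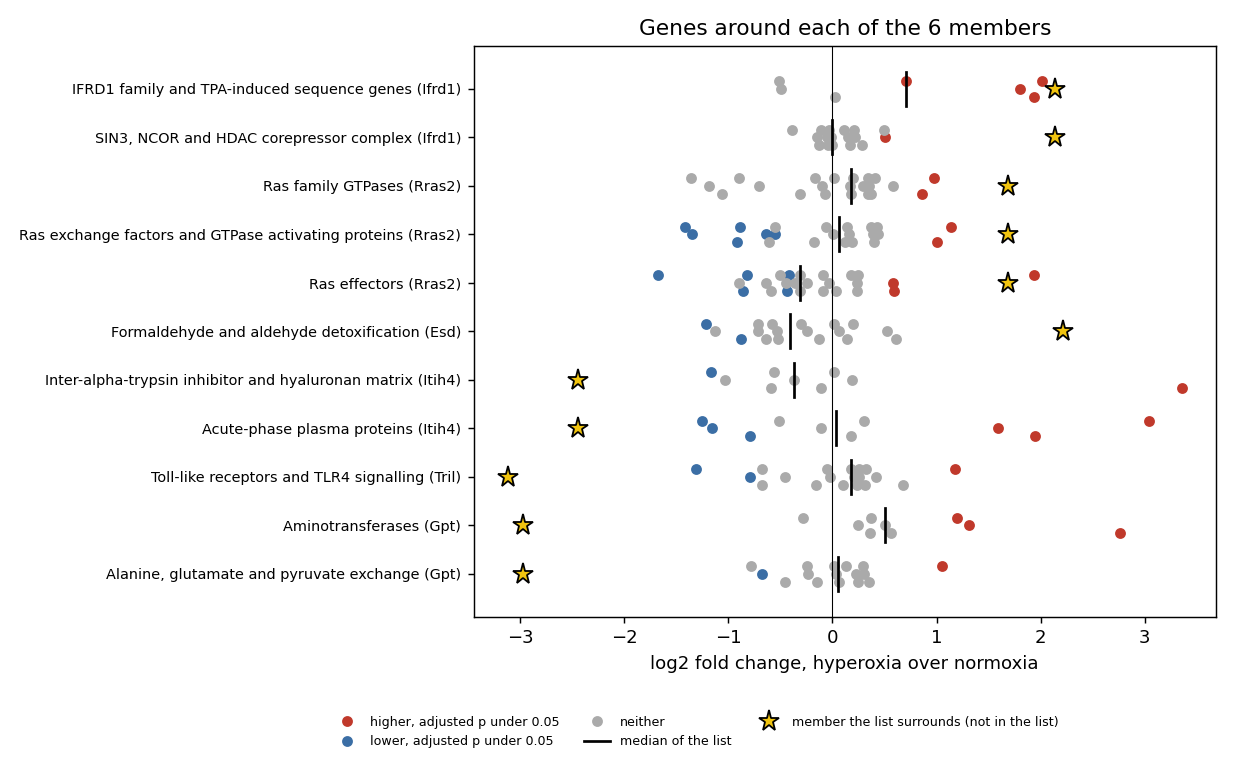
Differences on the log2 scale, hyperoxia over normoxia, for the tested genes of each of 11 lists, named with the gene they surround. Red and blue points passed as higher or lower, grey points did not, black lines are the medians of the lists and stars mark the member itself, which is in no list. Psat1 at 2.76 lies on the opposite side of 0 from Gpt, as Vcan at 3.35 does from Itih4.

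Total counts ran from 1607111 to 3387736 per normoxic library and from 2029006 to 4540288 per hyperoxic one, and the alveolar type 1 and type 2 markers were detected in both groups. Of the capillary markers, Aplnr was at 13.96 CPM in normoxia and at most 0.625 CPM in any hyperoxic library, under the floor of 3 counts, whereas Cd93 rose from 755 to 3478 CPM (2.20, edgeR adjusted p = 1.66e-06), and both were named after their values were seen. Hyperoxia replicate 1 stood apart, with correlations of 0.721 to 0.833 with the other libraries, against 0.854 to 0.967 among the other 12. These are whole lungs, in which fewer cells of a type and less RNA per cell cannot be told apart. For alveolar type 2 cells 5 of 6 markers fell, and their summed level was 12380 to 23030 CPM in normoxia and 3181 to 6846 CPM in hyperoxia. For B cells 4 of 4 fell, with sums of 110 to 156 and 29.2 to 67.6 CPM, and for club cells 2 of 4 fell, or 4 of 4 without hyperoxia replicate 1, with sums of 14620 to 53320 and 503 to 10140 CPM. The sums overlapped for T cells (2 of 2 tested fell), monocytes (3 of 4 fell and 1 rose), alveolar macrophages (3 of 5 fell), ciliated cells (2 of 4 fell), aerocytes (2 of 4 fell and 1 rose), alveolar fibroblasts (2 of 4 tested fell and 1 rose), cardiac muscle (2 of 4 fell), erythroid cells (1 of 4 tested fell) and mesothelial cells (1 of 4 tested fell). Without hyperoxia replicate 1, mesothelial markers fell in 2 of 5, those of ciliated cells and of alveolar fibroblasts each in 3 of 4, and 1 alveolar macrophage marker rose. For general capillary cells 3 of 5 fell and 1 rose, and the sum was higher in hyperoxia, at 3044 to 6128 CPM against 1994 to 2350 CPM. That sum followed Cd93, since the means of the other 4 were lower in hyperoxia and the list's median log2 fold change was -1.16. The sum was also higher for alveolar type 1 cells (1 of 5 fell and 1 rose), at 3462 to 4509 against 2476 to 2861 CPM, and it followed Akap5, which rose from 1194 to 2734 CPM, while Rtkn2 fell from 233 to 121 CPM and the list's median was 0.06. No marker fell for neutrophils, adventitial fibroblasts or smooth muscle and pericytes, with sums that overlapped, although without hyperoxia replicate 1 an adventitial marker fell and another rose. Of the smooth muscle and pericyte markers 1 of 6 rose. The part of these cells in the lower Itih4, Tril and Gpt was not tested. Itih4 and Gpt are best known from the liver. The 7 hepatocyte markers together were at 1.87 to 5.58 CPM in normoxia and 0.808 to 4.86 CPM in hyperoxia, and none had enough counts to be tested.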

How the data were processed

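The 13 Quant-seq libraries of mouse lung were grouped by the condition in the sample labels, 7 normoxic and 6 hyperoxic. Reads were pseudoaligned by the authors with kallisto (BioJupies), who deposited whole-number counts per gene symbol without normalization, and log10 of CPM plus 1. The submitters' processing notes name mm10 and limma 3.54.2, and the annotation is not given in the sources used here. Counts carry no molecular identifiers, so a floor of 3 counts covers counting error only, and at these depths low genes such as Tril and Gpt in hyperoxia are measured coarsely.

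Counts were fitted with edgeR 4.0.16 (TMM, filterByExpr, glmQLFit and glmQLFTest, Benjamini-Hochberg adjustment over 12496 genes, threshold 0.05) in R 4.3.3. Each standard error is the fold change on the log2 scale divided by the square root of F, and log2 CPM used a prior count of 2. Within-group pairs of libraries differed by more than sampling noise in all 36 cases, with a chi-square per gene of at least 3.9, so each library was kept as 1 replicate. Alternatives in the test were DESeq2 1.42.0, limma-voom (limma 3.58.1) and limma on the authors' log10 values turned into log2. Others scaled by total count without TMM, dropped the filter, or required 10 counts in each library. Further fits added the replicate number as a blocking factor or the letter set as a covariate, used 1 letter set, or left out 1 of the 13 libraries. The fits were tested on simulated data with 200 genes changed and the same dispersion for every gene. Of the edgeR calls 6.34% were false, and of the DESeq2 calls 10.3%, at the threshold of 0.05. The false shares were 3.55% for limma-voom, 4.52% for limma on log CPM and 3.65% for edgeR with the replicate block. The count of list calls without hyperoxia replicate 1 and the alternatives for single list genes were added after seeing the data.

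The 6 genes and the lists around them were chosen with earlier results of these data known. Named list genes are the 3 with the smallest adjusted p among those called in each list, the closest paralogs or partners of a member whatever their call, and the 3 genes most similar to each member. Btg2, Nr4a1 and Zfp36 were named after their values were seen. A gene of the lists was left out and is not reported here. Gene positions were matched by symbol.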

Additional observations from a re-analysis of the deposited data

Results flagged for a closer look

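In each group the highest or the lowest library was compared with its neighbour by Dixon's ratio. Of 16 groups of values examined, 4 held a library far from the others, where chance gives about 1 in 20, or 0.8. Rras2 in normoxia was highest in replicate 2, at 33.5 CPM (ratio 0.683), where counting error alone gives a coefficient of variation of 11.04%. Tril in hyperoxia was lowest in replicate 3, at 1.04 CPM (ratio 0.722), which rests on 3 counts. The total count was lowest in normoxia replicate 5, at 1607111 (ratio 0.612). The mean correlation with the other libraries was lowest in hyperoxia replicate 1, at 0.779 (ratio 0.763), and this library gave the highest Ifrd1 and Itih4 and the lowest Rras2 and Esd of its group.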

How the results depend on the processing

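The log2 fold changes of Ifrd1, Rras2, Esd, Itih4 and Tril kept their direction and moved by less than the spread between replicates under each alternative that gave a value. Tril and Gpt have no value with at least 10 counts in every library. Gpt moved to -3.73 with only the libraries B to M and to -1.97 with only O to S, and the cause was not tested. With 1 library left out the ranges were 2.09 to 2.22 for Ifrd1, 1.68 to 1.75 for Rras2, 2.14 to 2.32 for Esd, -2.52 to -2.37 for Itih4, -3.20 to -2.92 for Tril and -3.35 to -2.77 for Gpt.

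Over the whole table, 1473 genes were higher and 1346 lower. The 8 libraries B to M alone called 679 and 441, and the 5 libraries O to S alone 1438 and 1356, and the cause was not tested. Same-numbered libraries did not vary together (correlations of deviations -0.325 to 0.272, with 1 normoxic library most like its own number). No pairing by number was seen, though one with small effects could be missed, and the replicate block called 718 and 626 genes. The split between the directions moved to 1179 higher and 1579 lower with library size alone (median log2 fold change -0.10). With limma on the deposited log10 values, where both the test and the scaling differ, it was 1097 and 1729 (median -0.16), and with limma-voom, which keeps TMM, 1374 and 1496. Leaving out 1 library gave 1256 to 1934 higher and 1049 to 1699 lower. DESeq2 called 1763 and 1544.

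The medians of several lists moved, and the cause was not tested. The genes induced with Ifrd1 went from 0.71 to 1.71 in O to S and to 1.73 with at least 10 counts. The corepressor median of -0.0001 was -0.12 with limma on the deposited values, -0.0806 with library size alone, 0.0509 without a filter, -0.0934 with at least 10 counts, 0.17 in B to M, -0.14 in O to S and 0.006 to 0.0789 with 1 library left out. The inter-alpha-trypsin inhibitor and hyaluronan median of -0.37 was 0.0243 without a filter, -0.17 with the replicate block, 0.0465 in B to M, -0.21 in O to S and -0.53 to -0.11 with 1 library left out. The median of exchange factors and activating proteins was 0.27 in B to M, -0.31 in O to S and -0.0829 to 0.15 with 1 library left out, the lowest without hyperoxia replicate 1. In O to S the median was -0.0059 for Ras effectors, 0.10 for aldehyde removal and 0.85 for aminotransferases. The Ras family median of 0.18 was -0.0675 with limma on the deposited values and -0.0009 without hyperoxia replicate 4. Without hyperoxia replicate 1 it was 0.12, that of Ras effectors -0.16 and that of Toll-like receptors 0.0623. Without hyperoxia replicate 2 the Ras family median was 0.0857. With at least 10 counts the acute-phase median was -0.58. Toll-like receptors had -0.0023 with limma on the deposited values.

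Among values of the named list genes, 705 stayed on their side of the threshold with the same sign, 51 lost the call and 2 gained it. A further 12 changed sign and were not called before or after. The replicate block lost the calls of Tbl1x, Rala, Map2k2, Aldh1a7, Serpina3n, Cd180, Gfpt2 and Got1. The libraries B to M alone lost those of Ptgs2, Fos, Egr1, Tbl1x, Rasgrp1, Rasgrp3, Rin1, Map2k2, Aldh1a7, Itih5, Serpina3n, Saa3, Lbp, Cd180, Gfpt2, Got1 and Pdk1, and O to S alone those of Tbl1x, Pik3cd, Aldh1a7, Tlr4 and Pdk1. Some genes changed sign. In O to S, Ifrd2 was at 0.41. Rras was at -0.21 with limma on the deposited values, -0.0185 with the replicate block and -0.59 in B to M, and from -0.0335 (without hyperoxia replicate 4) to 0.4474 (without hyperoxia replicate 1) with 1 library left out. Mras was at 0.15 in B to M, 0.0407 without hyperoxia replicate 3 and 0.0273 without normoxia replicate 6. Cd14 was at -0.12 with limma-voom and with the replicate block, -0.25 with limma on the deposited values and with 1 library left out from -0.15 (without hyperoxia replicate 2) to 0.5056 (without hyperoxia replicate 1).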
